A study of Mus musculus with 15 samples.

Results

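Opioid receptors and other G-protein-coupled receptors of nociceptors were followed across the trigeminal ganglia (TG) of mice with an injured cornea. They were the 10 genes Oprm1, Oprd1, Oprk1, Oprl1, Cnr1, Mrgprd, Ptger4, Ptgir, F2rl1 and Bdkrb2, chosen by name out of 55573 genes in the count table and matched to their gene identifiers. All 10 were listed, all had reads, and 7 of them had at least 1 read in every sample. All 10 also passed the filter on low counts, which left 16567 genes for testing. Mrgprd had by far the highest level of the 10, and Oprd1 the lowest mean. No receptor passed the test in any comparison of treatments. The smallest p belonged to Mrgprd, whose mean was 1059 ± 269 normalized counts with RvD6si and 714 ± 156 with RvD6 (SD, n = 5 each).

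The samples came from 10-week-old male CD1 mice whose right cornea had been injured with a 2-mm trephine, taking off the epithelium and the front of the stroma. The injured eyes received vehicle, RvD6 (labelled RvD6-standard) or RvD6si (labelled RvD6-isomer) 3 times a day, and the TG of the injured side was taken on day 12, with 5 TG in each group. RvD6 and RvD6si are stereoisomers, dihydroxy lipids made from docosahexaenoic acid, and their doses are not given in the sources used here. Every TG, those of vehicle included, came from the injured side, and each library was bulk mRNA of a whole ganglion, of whose neurons only some innervate the cornea. Replicates 1 to 5 are vehicle, 6 to 10 RvD6 and 11 to 15 RvD6si. The comparisons ask whether either lipid, given to the eye, alters gene expression in the ganglion that serves it, and whether the isomers differ.

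Nociceptors are the sensory neurons that respond to damaging stimuli, and G-protein-coupled receptors set how readily they fire. Opioid, nociceptin and cannabinoid receptors couple to Gi/o proteins, which restrain adenylyl cyclase, close voltage-gated calcium channels and open inward rectifier potassium channels, and so damp the neuron. Receptors for prostaglandins, proteases and bradykinin couple mainly to Gs or Gq proteins, which raise cyclic AMP or calcium and sensitize it. Receptors on corneal nerve endings are made in cell bodies in the TG, although several of these genes are also active in glia, blood vessels and immune cells.

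Per sample, 4125962 to 9903396 reads were counted on genes. The 10 receptors covered a wide range of levels, from Mrgprd, which had 477 to 1614 reads in every sample, to Oprd1, which had 0 to 29. To compare levels between genes, counts scaled to the library total (CPM) were divided by the exonic length in units of 1000 bases. On this scale Mrgprd, a receptor for β-alanine that marks non-peptidergic nociceptors, stood first with a level of 40.1 ± 10.4 (SD, n = 15 TG). It was above the next gene in all 15 TG. Oprl1, the nociceptin receptor, followed at 11.8 ± 4.12 and was above Cnr1 in 12 of 15. The cannabinoid receptor Cnr1 at 6.62 ± 2.58 and the prostacyclin receptor Ptgir at 6.39 ± 2.15 could not be ordered, since Cnr1 was the higher in only 9 of 15 TG, and in the vehicle samples alone Ptgir came first. Ptgir was above Oprm1 in all 15 TG. Oprm1 stood at 2.18 ± 0.831, above the prostaglandin E2 receptor Ptger4 at 1.27 ± 0.673 in 13 of 15. Ptger4 was above the bradykinin receptor Bdkrb2, at 0.984 ± 0.567, in 10 of 15 TG. The 3 lowest were the κ-opioid receptor Oprk1 at 0.563 ± 0.341, the protease-activated receptor F2rl1 at 0.522 ± 0.543 and the δ-opioid receptor Oprd1 at 0.256 ± 0.295. Oprk1 was above F2rl1 in 8 of 15, so these neighbours could not be ordered either. F2rl1 was above Oprd1 in 10 of 15, and their ranges overlapped. Without the division by length, Bdkrb2 and Oprk1 changed places and the rest of the order stood.

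**Figure D1:**
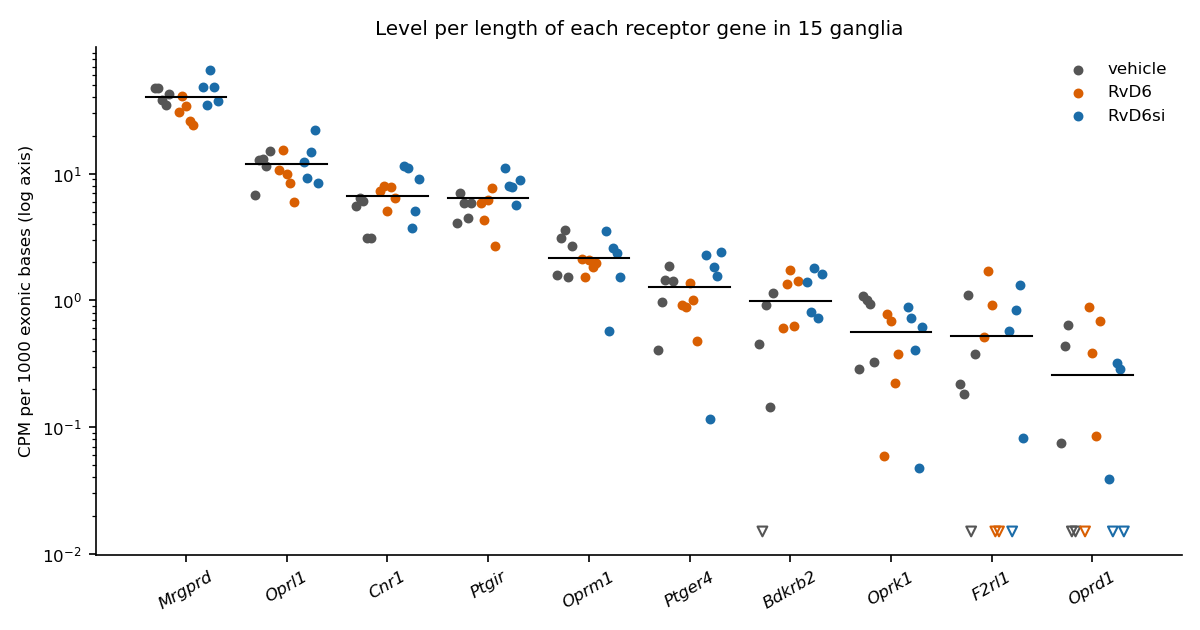
Level of each receptor gene in CPM per 1000 exonic bases on a log axis, 1 point per TG and colored by group, with a black bar at the mean of the 15 TG. Open triangles at the foot of the axis stand for samples with 0 reads, which a log axis cannot place. Mrgprd lies above every other gene in all 15 TG, and 5 samples have no read of Oprd1.

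To place the genes on the genome, RefSeq promoter windows of GRCm38.p6, running from 250 bases before to 50 bases after a transcription start, were matched by symbol. Windows were found for 8 of the 10 receptors, 14 in all, but not for Oprk1 or F2rl1. They held 2 to 43 CG dinucleotides, beside a median of 7 over all windows. Shown are the windows of Mrgprd and Oprd1, the receptors with the highest and the lowest mean level in the TG. Also shown is the μ-opioid receptor Oprm1, which has 3 windows and of which the last is given. Each is printed 5′ to 3′ on the strand of the gene, with CG dinucleotides in capitals.
Mrgprd, chr7:145314585-145314884, plus strand: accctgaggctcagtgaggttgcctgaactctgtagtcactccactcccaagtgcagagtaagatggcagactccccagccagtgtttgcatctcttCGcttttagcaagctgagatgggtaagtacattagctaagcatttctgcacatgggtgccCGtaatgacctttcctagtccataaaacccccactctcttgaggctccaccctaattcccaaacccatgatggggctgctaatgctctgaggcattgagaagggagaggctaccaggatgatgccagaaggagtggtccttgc
Oprm1, chr10:6788326-6788625, plus strand: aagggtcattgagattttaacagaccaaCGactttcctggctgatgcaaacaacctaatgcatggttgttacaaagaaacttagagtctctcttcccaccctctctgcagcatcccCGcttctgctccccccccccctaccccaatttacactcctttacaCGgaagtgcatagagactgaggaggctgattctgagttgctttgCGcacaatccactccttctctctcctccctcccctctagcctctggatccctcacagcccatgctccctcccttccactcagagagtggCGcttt
Oprd1, chr4:132144437-132144736, minus strand: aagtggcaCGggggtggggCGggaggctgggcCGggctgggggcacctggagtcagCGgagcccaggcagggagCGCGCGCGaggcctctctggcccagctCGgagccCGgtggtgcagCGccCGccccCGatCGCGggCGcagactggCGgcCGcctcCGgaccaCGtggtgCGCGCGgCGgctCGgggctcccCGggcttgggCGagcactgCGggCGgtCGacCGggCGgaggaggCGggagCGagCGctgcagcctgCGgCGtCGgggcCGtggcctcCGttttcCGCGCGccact
The Mrgprd window holds 2 CG dinucleotides and the Oprm1 window 5, while the Oprd1 window holds 43, the most among the windows of these receptors. A search of both strands for 4 short motifs found the GC box GGGCGG 4 times in the Oprd1 window and in neither of the other windows shown. That motif occurs in 35.7% of all 32851 windows of the same length. Among windows not shown, 1 of Cnr1 held 5 GC boxes and 40 CG dinucleotides, that of Ptger4 held 4 GC boxes and that of Ptgir 2. The remaining windows of these receptors held no GC box. The cyclic AMP response element TGACGTCA, present in 1.79% of all windows, was found in no window of these receptors.

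The spread between TG of a group was wider than counting alone allows for every receptor. For Mrgprd the coefficient of variation within groups was 21.3%, against 3.30% expected from counting. It was 35.3% for Oprl1 and 35.9% for Cnr1, where the counting error was 5.56% and 5.76%, and the 501 tested genes nearest in level had medians of 23.1% and 23.6%. At the low end, Oprd1 reached 114% and F2rl1 111%, beside counting errors of 36.1% and 30.8%. Ptgir, at 27.3%, was below the median of its own neighbours in level, 29.0%.

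The comparisons were each lipid against vehicle and RvD6si against RvD6, made with the quasi-likelihood test of edgeR over all 16567 genes and Benjamini-Hochberg adjustment. Since these are whole ganglia, fewer cells of a type and less RNA per cell cannot be told apart. In RvD6si against vehicle 0 of the 10 receptors passed an adjusted p of 0.05, where 0.67% of all genes did. At an unadjusted p below 0.05 there were 2, Cnr1 and Ptgir, beside 16% of all genes. In RvD6 against vehicle 0 passed, as did 0% of all genes, and the unadjusted test picked 1 receptor, Mrgprd, beside 13.6% of all genes. In RvD6si against RvD6 again 0 passed, with 0.235% of all genes passing, and 2 receptors, Mrgprd and Ptgir, had an unadjusted p below 0.05 beside 8.82% of all genes. DESeq2 also called 0 receptors in each comparison, where it called 8.13%, 1.92% and 0.936% of the genes to which it gave an adjusted p, and in RvD6si against vehicle it gave one to only 6 of the 10 receptors. No receptor had groups that did not overlap, while 4.88%, 3.72% and 1.74% of all genes did in the 3 comparisons in the order given.

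The direction of the fitted differences was mixed. In RvD6si against vehicle 7 of the 10 log2 fold changes were above 0 with a median of 0.31, beside 51.2% of all genes above 0 and a median of 0.015. Without RvD6si replicate 14 there were 5 above 0, with a median of 0.077. Leaving out any other single sample kept 7 or 8 above 0. In RvD6 against vehicle 4 were above 0, with a median of -0.13 beside 0.024 over all genes and 52.2% of them above 0, and 6 were above 0 with the pan-neuronal score as covariate. In RvD6si against RvD6 there were 8 above 0, with a median of 0.28 beside -0.0039 over all genes and 49.5% of them above 0, but 5 with that covariate. The 95% confidence interval stayed within a log2 fold change of 1 in either direction for 2 receptors in RvD6si against vehicle, Oprl1 and Mrgprd. It did so for 3 in RvD6 against vehicle, Oprl1, Mrgprd and Ptgir, and for 3 in RvD6si against RvD6, Oprm1, Cnr1 and Mrgprd. For the remaining receptors the interval reached a fold of at least 2 in some direction, so that a change of that size was not resolved.

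**Figure D2:**
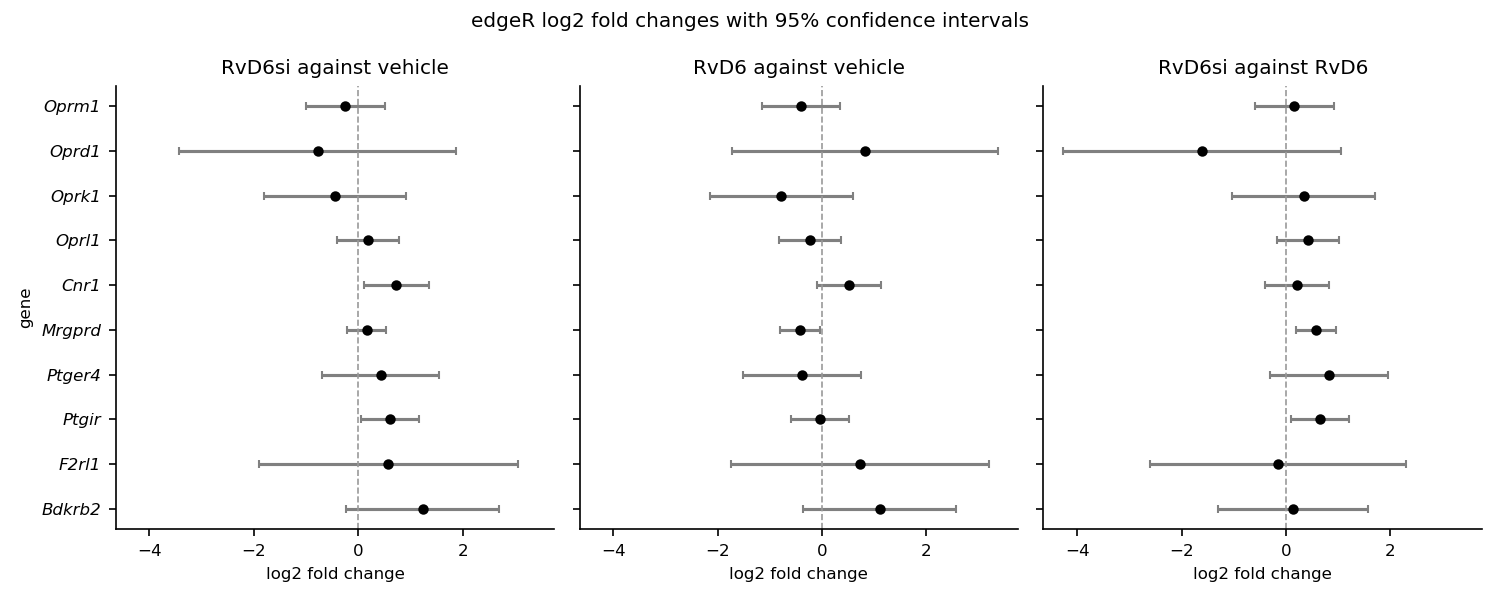
Fitted log2 fold change of each receptor gene (points) with its 95% confidence interval (bars) from edgeR with 5 TG per group, in 1 panel for each comparison. Intervals that leave out 0 belong to Cnr1 and Ptgir on the left, to Mrgprd in the middle, and to Mrgprd and Ptgir on the right, and none of these passed the adjustment over all genes.

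Of the 4 members of the opioid receptor family, Oprm1 (chr10:6758506-7038198, GRCm38) is the μ receptor, the main target of morphine. Its normalized counts, which are counts divided by the size factor of the library, were 91.6, 179.7, 209, 88.6 and 155 in vehicle. They were 122, 90.1, 120.5, 107 and 114 in RvD6 and 207, 33.5, 148, 137 and 87.8 in RvD6si. The RvD6 samples were the most alike, lying within the range of vehicle, and RvD6si replicate 12 was the lowest of all 15. Group means were 145 ± 53.6, 111 ± 13.0 and 122 ± 65.3 (SD, n = 5 each). Against vehicle the fold was 0.843 for RvD6si (95% confidence interval 0.5 to 1.42) and 0.756 for RvD6 (0.448 to 1.28). Without RvD6si replicate 12 the log2 fold change of RvD6si moved from -0.25 to 0.0011. Between the lipids the fold was 1.11 (0.659 to 1.89, adjusted p = 0.948, edgeR). Oprm1 shares 96 exonic bases with Ipcef1 on the opposite strand, and the strand was not used in counting, so reads there were left out.

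Oprl1 (chr2:181715016-181720985), the nociceptin receptor, was the most abundant of the family. Its normalized counts were 184, 345, 355, 311 and 405 in vehicle, 290.0, 426, 268, 228 and 162 in RvD6 and 337, 254, 399.8, 598 and 229 in RvD6si. The highest value was RvD6si replicate 14 and the lowest RvD6 replicate 10, and the 3 groups overlapped. Means were 319.9 ± 83.1, 275 ± 97.6 and 364 ± 148 (SD, n = 5 each). For RvD6si against RvD6 the fold was 1.34 with an interval of 0.884 to 2.02 (edgeR, adjusted p = 0.722), and 0.42 on the log2 scale turned to -0.15 with the pan-neuronal score as covariate. Without RvD6si replicate 14 the log2 fold change against vehicle went from 0.18 to -0.071.

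Oprk1 (chr1:5588466-5606131), the κ receptor for dynorphins, was counted at 26, 80, 83, 62 and 26 reads in vehicle, 5, 58, 32, 12 and 25 in RvD6 and 52, 60, 29, 3 and 25 in RvD6si. Every group held samples with few reads beside samples above 50, and the groups overlapped. Normalized means were 47.8 ± 25.6, 28.2 ± 20.2 and 35.4 ± 21.5 (SD, n = 5 each), and the edgeR adjusted p was 0.792, 0.64 and 0.931 in the 3 comparisons. The fold between the lipids was 1.26 (0.487 to 3.28). Oprd1 (chr4:132110726-132144486), the δ receptor for enkephalins, had 3, 14, 23, 0 and 0 reads in vehicle, 0, 29, 8, 2 and 20 in RvD6 and 1, 0, 10, 8 and 0 in RvD6si. In each group at least 1 sample had 0 reads, 5 of the 15 in all, a count that still allows up to 3 reads, or 2.34 to 4.88 on the normalized scale in those samples. The interval of its log2 fold change ran from -3.43 to 1.87 for RvD6si against vehicle and from -4.26 to 1.05 between the lipids.

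**Figure D3:**
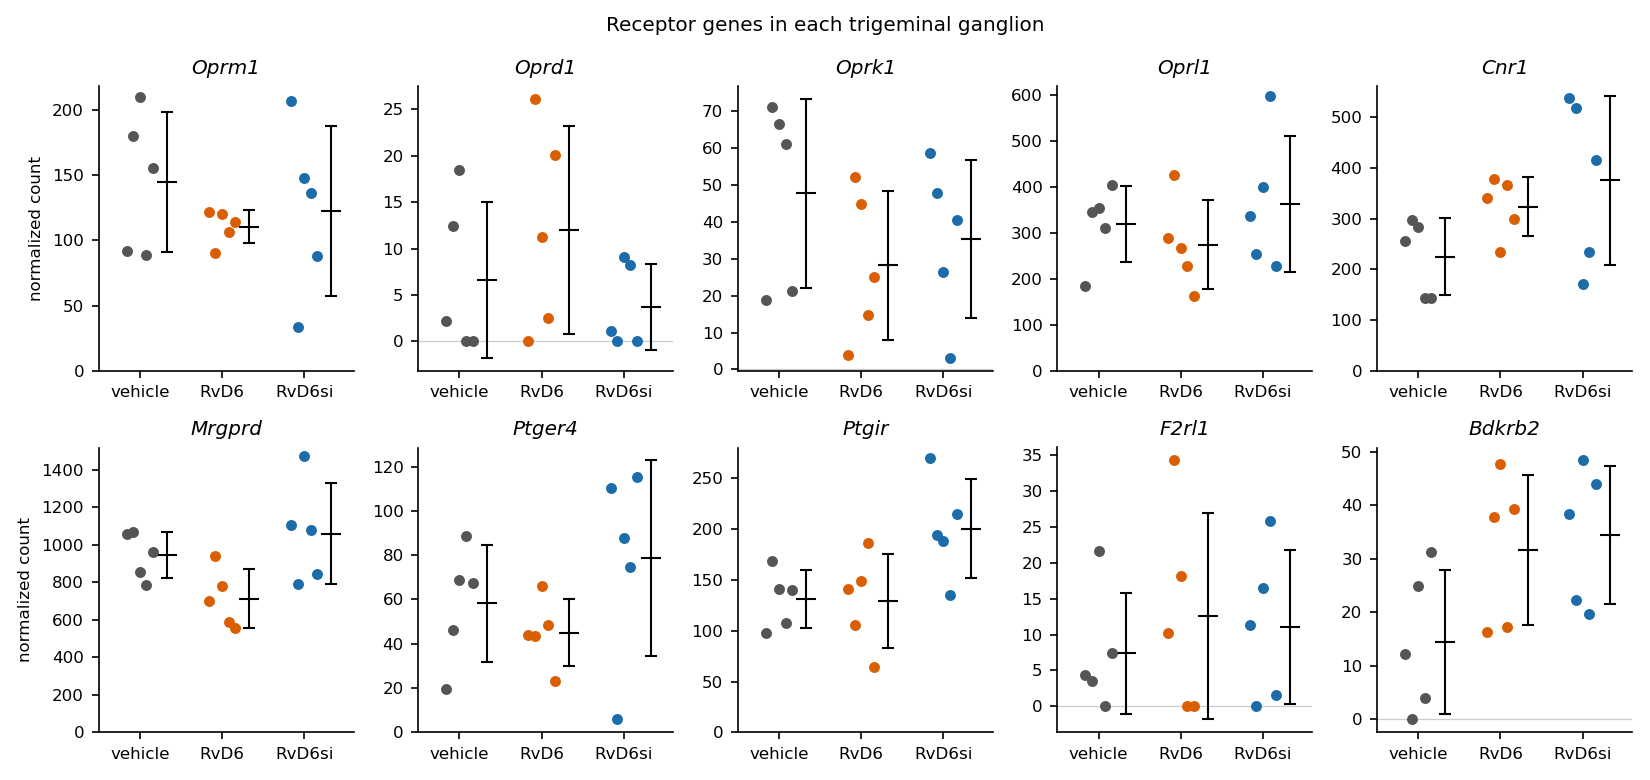
Normalized counts of the 10 receptor genes, 1 point per TG (n = 5 per group), with the mean and SD as a bar beside the points. The groups overlap in every panel. Mrgprd runs from 556 to 943 in RvD6 and from 788 to 1069 in vehicle.

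Cnr1 (chr4:33924593-33948831) encodes the CB1 receptor, through which endocannabinoids act on sensory neurons. Its normalized counts were 255, 298, 283, 144 and 143 in vehicle, 340.0, 378, 234, 367 and 300.0 in RvD6 and 539, 518, 171, 235 and 416 in RvD6si. Of the RvD6 samples 4 lay above every vehicle sample, and of the RvD6si samples 3 did, while RvD6si replicates 13 and 14 lay within the vehicle range. The means were 225 ± 75.8, 324 ± 58.4 and 376 ± 166 (SD, n = 5 each). For RvD6si against vehicle the log2 fold change was 0.73 ± 0.29 (SE), with an edgeR adjusted p of 0.226 (0.0231 before adjustment). By exact permutation of the normalized counts p was 0.119 (two-sided, n = 5 per group). For RvD6 against vehicle the corresponding values were 0.51 ± 0.29, adjusted p = 0.463 (edgeR), and exact p = 0.0635. Both comparisons use the same vehicle samples. The lipids themselves differed in Cnr1 by a fold of 1.16 (0.76 to 1.78). With the pan-neuronal score as covariate the log2 fold change was 0.12 for RvD6 against vehicle and 0.57 for RvD6si against RvD6, where it had been 0.51 and 0.22. Over the alternatives tried, the difference between RvD6si and vehicle ranged from 0.57 to 0.91 and its adjusted p was never below 0.111 (edgeR and DESeq2).

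Mrgprd (chr7:145314835-145324086) was the receptor with the most reads and the narrowest intervals. Vehicle samples had normalized counts of 1059.8, 1069, 857, 788 and 959.8. RvD6 samples had 699.6, 943, 779, 591 and 556, with 4 of the 5 below every vehicle sample. RvD6si samples had 1103, 792, 1473, 1081 and 847, with 3 of the 5 above every vehicle sample. Means were 947 ± 124, 714 ± 156 and 1059 ± 269 (SD, n = 5 each). The log2 fold change was -0.42 ± 0.18 (SE) for RvD6 against vehicle, with an edgeR adjusted p of 0.318 (0.0308 before adjustment). For RvD6si against RvD6 it was 0.58 ± 0.18, and the interval of the fold was 1.15 to 1.95. This had the smallest unadjusted p of any receptor, 0.00474, but an adjusted p of 0.289 (edgeR). For RvD6si against vehicle it was 0.16 (-0.22 to 0.54). The exact permutation test, 1 of 30 over receptors and pairs of groups and not adjusted, gave p = 0.0317 and p = 0.0397 for the comparisons with RvD6 (two-sided, n = 5 per group, smallest p possible 0.00794).

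The level of neuronal markers moved with Mrgprd. A pan-neuronal score, the mean centred log2 CPM of the 8 markers Snap25, Uchl1, Rbfox3, Tubb3, Prph, Avil, Isl1 and Pirt, was -0.48 in RvD6 replicate 9 and -0.44 in RvD6 replicate 10, against -0.13 to 0.20 in the other 13 TG. Those same replicates had the lowest Mrgprd of all samples. All 8 markers were detected in every group, and their summed CPM was 7225 to 8712 in vehicle, 4889 to 7596 in RvD6 and 6142 to 8546 in RvD6si. With the score as covariate the Mrgprd log2 fold change was -0.094 for RvD6 against vehicle and 0.25 for RvD6si against RvD6. Without replicates 9 and 10 these differences were -0.25 and 0.42. Related to other genes of the same neurons, Mrgprd CPM was 58.0 ± 6.31% of the summed CPM of 6 further markers of non-peptidergic nociceptors in vehicle, 46.9 ± 5.57% in RvD6 and 56.9 ± 11.9% in RvD6si (SD, n = 5 each). This ratio, chosen after the values were seen, differed between RvD6 and vehicle with an unadjusted exact permutation p of 0.0238, and between RvD6si and RvD6 with p = 0.143 in the same exact test. As a share of the pan-neuronal markers Mrgprd was 1.66 ± 0.316%, 1.59 ± 0.29% and 1.96 ± 0.292%, and RvD6 and vehicle gave an exact permutation p of 0.738 (n = 5 each).

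**Figure D4:**
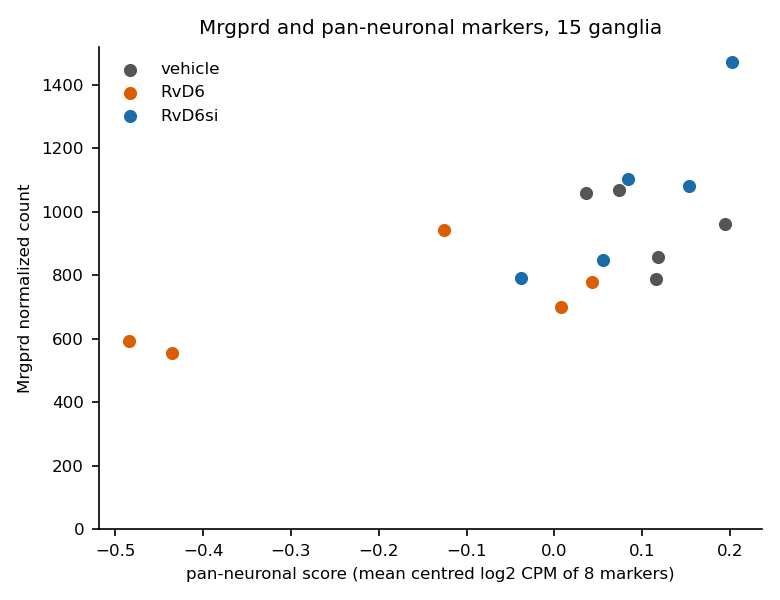
Mrgprd normalized count against the pan-neuronal score, 1 point for each of the 15 TG, colored by group. RvD6 replicates 9 and 10 stand apart on the left, with scores of -0.48 and -0.44 and the lowest Mrgprd counts, 591 and 556.

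Of the prostanoid receptors, Ptgir (chr7:16906490-16910905) binds prostacyclin, which sensitizes nociceptors during inflammation. Its normalized counts were 98.1, 168, 141, 107 and 139.8 in vehicle, 141, 105, 149, 186 and 64.4 in RvD6 and 269.9, 194, 188, 136 and 215 in RvD6si. In RvD6si 4 of the 5 samples lay above every vehicle sample, and the same number above every RvD6 sample, with replicate 14 the exception both times. Means were 131 ± 28.3, 129 ± 46.0 and 200.4 ± 48.6 (SD, n = 5 each). Against vehicle the log2 fold change of RvD6si was 0.61 ± 0.26 (SE; edgeR, unadjusted p = 0.0333, adjusted p = 0.265), and the exact permutation p was 0.0317, unadjusted. Against RvD6 it was 0.64 ± 0.27 (edgeR, unadjusted p = 0.0256, adjusted p = 0.475), a fold of 1.56 with an interval of 1.06 to 2.30. RvD6 and vehicle differed by -0.037 (-0.59 to 0.52). No alternative brought the adjusted p of RvD6si against vehicle below 0.0774, which was reached by DESeq2 on these groups alone.

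Ptger4 (chr15:5206661-5244187) encodes the EP4 receptor for prostaglandin E2. Normalized counts were 19.5, 46.3, 69.0, 88.6 and 67.4 in vehicle, 43.8, 43.3, 65.8, 48.3 and 23.2 in RvD6 and 111, 5.59, 87.6, 74.5 and 115 in RvD6si. RvD6si replicates 11 and 15 were the highest of all 15, and replicate 12 of the same group, with 7 reads, was the lowest. Means were 58.1 ± 26.3, 44.9 ± 15.2 and 78.8 ± 44.2 (SD, n = 5 each). On the log2 scale RvD6si against RvD6 gave 0.82, and 0.21 with the pan-neuronal score as covariate. The fold was 1.76 (0.805 to 3.86, adjusted p = 0.711, edgeR). Ptger4 shares 1097 of its exonic bases with other genes, most of them with the pseudogene Gm15937, and reads on those bases were not counted for it.

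The protease-activated receptor PAR2, which is cut open by tryptase and trypsin, is encoded by F2rl1 (chr13:95511732-95525227). It had 6, 4, 27, 0 and 9 reads in vehicle, 13, 38, 13, 0 and 0 in RvD6 and 10, 0, 18, 25 and 1 in RvD6si, so that samples with 0 reads occurred in every group. Means on the normalized scale were 7.39 ± 8.40, 12.5 ± 14.3 and 11.0 ± 10.7 (SD, n = 5 each), and the interval of the log2 fold change spanned -1.90 to 3.05, -1.74 to 3.20 and -2.61 to 2.30 in the 3 comparisons. With the pan-neuronal score as covariate the log2 fold change of F2rl1 was 3.80 for RvD6 against vehicle, in place of 0.73. Between the lipids it was -3.54, in place of -0.16, with an adjusted p of 0.497 (edgeR). RvD6 replicates 9 and 10, which had the lowest scores, had 0 reads of F2rl1. Bdkrb2 (chr12:105563226-105595237) encodes the B2 receptor, the constitutive receptor for bradykinin. Its reads numbered 17, 0, 31, 4 and 38 in vehicle, 21, 42, 34, 14 and 39 in RvD6 and 34, 28, 53, 19 and 27 in RvD6si. In each treated group 3 of the 5 samples lay above every vehicle sample on the normalized scale, where vehicle had 12.3, 0, 24.9, 3.94 and 31.3. Means were 14.5 ± 13.4 in vehicle, 31.7 ± 14.0 in RvD6 and 34.5 ± 12.9 in RvD6si (SD, n = 5 each). The fold against vehicle was 2.35 (0.855 to 6.49) for RvD6si and 2.15 (0.78 to 5.90) for RvD6, with adjusted p-values of 0.402 and 0.513 (edgeR), and these share the vehicle samples. Bdkrb1, the inducible bradykinin receptor, had 0 reads in all 15 TG, which allows at most 3 reads in any of them.

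Beyond the receptors, 144 genes of the same pathways were followed in 5 lists, and 114 of them were tested. In RvD6si against vehicle 3 passed an adjusted p of 0.05 in edgeR, 2 higher and 1 lower, beside 0.525% and 0.145% of all genes, and 18 were higher and 7 lower at an unadjusted p below 0.05, directions in which 8.69% and 7.3% of all genes fell. In RvD6 against vehicle 0 passed (edgeR), with 8 higher and 14 lower at an unadjusted p below 0.05, beside 7.63% and 5.99% of all genes, and 2 called by DESeq2. Between the lipids 0 passed as well, with 13 higher and 4 lower in RvD6si at that level, beside 4.18% and 4.64% of all genes, and again 2 called by DESeq2. Over all genes the adjusted test called 0.0121% higher and 0.223% lower in RvD6si than in RvD6. The genes that passed were Gnai3, Prkar2b and Rgs10.

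Gnai3, an inhibitory Gα subunit through which opioid and cannabinoid receptors signal, rose with RvD6si, and its lowest RvD6si sample stood above the highest of vehicle. Its normalized counts were 403, 401, 367, 563 and 312 in vehicle, 485, 622, 612, 931 and 562 in RvD6 and 777, 686, 855, 752 and 679 in RvD6si. For RvD6si against vehicle the log2 fold change was 0.87 ± 0.18 (SE, adjusted p = 0.0363, edgeR), and that of RvD6 0.64 ± 0.18 (adjusted p = 0.174). Between the lipids it was 0.23 ± 0.18 (adjusted p = 0.76, edgeR). The call was lost when vehicle replicate 1, 2, 3 or 5 or RvD6si replicate 11, 13 or 14 was left out (adjusted p up to 0.11), and the 9 other alternatives kept it. Another inhibitory subunit, Gnai1, had means of 632 ± 55.9 in vehicle and 894 ± 139.9 in RvD6si (SD, n = 5 each) with an adjusted p of 0.107 (edgeR).

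Prkar2b, a regulatory subunit of the cyclic AMP-dependent protein kinase, rose with RvD6si as well, again with no overlap with vehicle. Normalized counts were 639, 604, 654, 575 and 539.5 in vehicle, 562, 837, 793, 768 and 781 in RvD6 and 1027, 923, 882, 1095 and 1029 in RvD6si. RvD6si samples lay above all RvD6 samples too. The log2 fold change was 0.71 ± 0.13 against vehicle (adjusted p = 0.0262, edgeR) and 0.42 ± 0.13 against RvD6 (adjusted p = 0.289). The call against vehicle was lost when any vehicle sample or RvD6si replicate 11 or 14 was left out, with an adjusted p of at most 0.0871. Its relative Prkar1a had means of 2904 ± 71.9 in vehicle and 4634 ± 1012 in RvD6si, with no overlap between these groups and an adjusted p of 0.0534 (edgeR). With 1 sample left out that adjusted p fell as low as 0.0225, so Prkar1a was called in at least 1 such fit.

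Rgs10, a regulator that speeds the shut-off of Gi/o subunits, fell with RvD6si. Its normalized counts were 1168, 1207, 1541, 1202 and 1564 in vehicle, 1166, 859.8, 959.7, 907 and 1055 in RvD6 and 573, 849.9, 1018, 810.1 and 858 in RvD6si, and neither treated group reached the lowest vehicle sample. The log2 fold change was -0.70 ± 0.16 for RvD6si (adjusted p = 0.043, edgeR) and -0.45 ± 0.16 for RvD6 (adjusted p = 0.223). The call for RvD6si held in 4 of the 15 fits with a sample left out, those without RvD6 replicate 6, 7 or 9 or RvD6si replicate 13, and in the others the adjusted p reached 0.133. It was also lost with edgeR on the compared groups alone, without a filter, with the length trend removed and without RvD6 replicates 9 and 10. Rgs19, of the same family, had means of 202 ± 26.6 in RvD6 and 122 ± 23.9 in RvD6si, groups that did not overlap, with an adjusted p of 0.19 (edgeR).

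**Figure D5:**
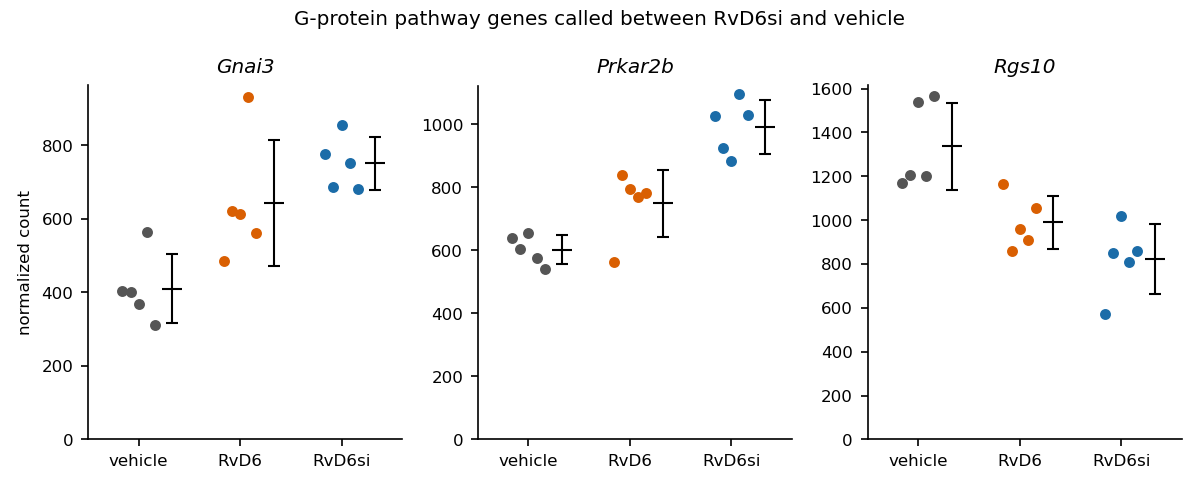
Normalized counts of Gnai3, Prkar2b and Rgs10, 1 point per TG (n = 5 per group), with the mean and SD as a bar beside the points. RvD6si lies apart from vehicle in all 3 panels. For Rgs10 the RvD6 samples nearly touch vehicle, with 1166 as their highest value and 1168 as the lowest of vehicle.

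Among receptors related to the members and genes of their ligands no gene passed in any comparison (edgeR). Among 14 tested receptors related to the members, at an unadjusted p below 0.05, 1 was higher in RvD6si than in vehicle, 1 lower in RvD6 than in vehicle and 1 higher in RvD6si than in RvD6, beside 8.69%, 5.99% and 4.18% of all genes. They were the prostaglandin E2 receptor Ptger3, with means of 84.8 ± 38.1 in vehicle and 141 ± 42.6 in RvD6si, Mrgprb5, with 240.2 ± 47.4 in vehicle and 142 ± 79.6 in RvD6, and the prostaglandin F receptor Ptgfr, with 159 ± 49.1 in RvD6 and 243 ± 90.4 in RvD6si (SD, n = 5 each). Their adjusted p-values were 0.283, 0.329 and 0.507 (edgeR). The median log2 fold change of the 14 was 0.22 for RvD6si against vehicle, 0.25 for RvD6 against vehicle and 0.18 between the lipids, where that of all genes was 0.015, 0.024 and -0.0039. Mrgprb5 has close paralogs, between which reads may have been divided or lost. So has Mrgpra2b, with 2.16 to 129 in vehicle, 59.5 to 175 in RvD6 and 3.19 to 76.4 in RvD6si.

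Of the genes that make or break down the ligands, 20 of 30 were tested, with median log2 fold changes of 0.041, 0.13 and -0.16 in the same order. At an unadjusted p below 0.05, 3 were higher and 3 lower in RvD6si against vehicle, 4 higher and 3 lower in RvD6 against vehicle, and 2 higher and 2 lower in RvD6si against RvD6. Of all genes, 8.69% were higher and 7.3% lower in the first comparison, and 7.63% and 5.99% in the second. In the third, 4.18% were higher and 4.64% lower. Mgll, the lipase that degrades the endocannabinoid 2-arachidonoylglycerol, had normalized counts of 2704, 2870.2, 2570.1, 2838 and 3246 in vehicle and 1599, 1848, 2202, 2046 and 2373 in RvD6si. These groups did not overlap, and the log2 fold change was -0.50 ± 0.14 with an adjusted p of 0.0953 (edgeR). Faah, which degrades anandamide, had means of 373 ± 49.7 in RvD6 and 503 ± 103 in RvD6si (adjusted p = 0.442, edgeR). The mast cell tryptase Tpsb2, whose product activates PAR2, had means of 2.44 ± 1.93, 14.1 ± 7.38 and 11.5 ± 8.78 in vehicle, RvD6 and RvD6si. Vehicle samples had few reads of Tpsb2, and RvD6 replicate 10 and RvD6si replicate 15 lay within the vehicle range. Tpsb2 was called in neither comparison with vehicle (edgeR), nor with any single sample left out. Opioid precursors were scarce, with Penk at 22.9 ± 17.8, 41.3 ± 43.0 and 15.7 ± 6.84, and with Pdyn and Pnoc too low to be tested. Pomc, the precursor of β-endorphin, reached 1696 and 10474 in RvD6 replicates 9 and 10, against 1.13 to 209 in the other 13 TG, and its log2 fold change for RvD6 against vehicle, 5.33, turned to -2.03 with the pan-neuronal score as covariate.

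Among 23 tested Gi/o subunits and effectors, 5 were higher and 1 lower at an unadjusted p below 0.05 in RvD6si against vehicle, 1 higher and 5 lower in RvD6 against vehicle, and 1 higher and 0 lower between the lipids. The median log2 fold changes were 0.068, 0.092 and 0.15. Of all genes, 8.69% were higher and 7.3% lower at that unadjusted level in the first comparison, and 7.63% and 5.99% in the second. In the third, 4.18% were higher and 4.64% lower. These shares also stand beside the Gs and Gq genes and the regulators below. Gnb5 had means of 849 ± 125 in vehicle and 558 ± 149 in RvD6 (adjusted p = 0.191, edgeR). Gnb3 and Gng11 had the smallest p between the lipids, with means of 5.94 ± 9.37 in RvD6 and 24.1 ± 10.7 in RvD6si for the former and adjusted p-values of 0.423 and 0.604 (edgeR). Among 31 tested Gs and Gq genes, 8 had an unadjusted p below 0.05 in RvD6si against vehicle, all higher, where 8.69% of all genes were higher and 7.3% lower. In RvD6 against vehicle 3 were higher and 2 lower, between the lipids 5 were higher and 1 lower in RvD6si, and the median log2 fold changes were 0.22, 0.17 and 0.18. In RvD6 against vehicle the smallest p belonged to Gna11, a Gq-class subunit with means of 777 ± 129 and 540.0 ± 101, and to the calcium release channel Itpr1 with 98.8 ± 33.4 and 186 ± 73.0, with adjusted p-values of 0.191 and 0.211 (edgeR). The 26 tested regulators had medians of 0.045, 0.033 and -0.025, with 1 higher and 3 lower at an unadjusted p below 0.05 in RvD6si against vehicle, 0 and 3 in RvD6 against vehicle, and 4 and 1 between the lipids. Rgs3 had means of 149 ± 20.7 in vehicle and 220.3 ± 24.8 in RvD6si without overlap (adjusted p = 0.115), Rgs4 had 5229 ± 537 in RvD6 and 6818 ± 932 in RvD6si (adjusted p = 0.282), and Rgs7 had 543 ± 154 in vehicle and 317 ± 124 in RvD6 (adjusted p = 0.338, all from edgeR).

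Summed markers of other cells and tissues differed between groups for some lists and overlapped for others. The 4 satellite glia markers summed to a CPM of 6529 to 7909 in vehicle, 4721 to 6413 in RvD6 and 4318 to 6302 in RvD6si, so that both treated groups lay below vehicle, the RvD6si samples behind the calls of Gnai3, Prkar2b and Rgs10 among them. In RvD6si against vehicle 0 of these 4 were called (edgeR), with 2 lower at an unadjusted p below 0.05, and their part in those calls was not tested. The 4 markers of mural cells summed to 85.7 to 124 in vehicle, 122 to 289 in RvD6 and 113 to 199 in RvD6si. The 199 was RvD6si replicate 11, and the next highest RvD6si sample had 123. Of these 4 markers 1 was called lower in RvD6si than in RvD6 (edgeR). All 5 skeletal muscle markers were detected, and their summed CPM was 14.9 to 134 in vehicle, 71.8 to 2147 in RvD6 and 6.80 to 21.6 in RvD6si, and all 5 were lower in RvD6si than in RvD6 at an adjusted p below 0.05 (edgeR). The 4 erythroid markers summed to 2035 to 4371, 5020.3 to 9118 and 820.5 to 10308, with RvD6si replicate 15 at the top, and the 4 markers of bone marrow myeloid precursors to 5.39 to 41.2, 32.0 to 168 and 3.85 to 176. Of 5 pituitary markers 4 passed the filter, Lhb being at 0, and their sum was 9.06 to 3716, 90.7 to 851 and 19.8 to 631. These groups overlapped, and 0 of the 4 had an unadjusted p below 0.05 in any comparison (edgeR). The part of these tissues in the comparisons with RvD6, those of Mrgprd and Pomc included, was not tested. Markers of the labelled tissue were present, with all 6 of non-peptidergic and all 5 of peptidergic nociceptors detected in every group. The summed CPM of the former was 210.2 to 242 in vehicle, 193 to 253 in RvD6 and 231 to 297 in RvD6si. That of the peptidergic markers was 1597 to 2226, 1224 to 1678 and 1525 to 1744. In RvD6 against vehicle 3 of these 5 were lower at an unadjusted p below 0.05 (edgeR), beside 5.99% of all genes, and 0 were called. The 5 myelinated A fibre markers summed to 2156 to 2819, 1058 to 2463 and 1918 to 2784, with 1 higher and 1 lower at that level in the same comparison.

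For each receptor up to 3 tested genes with the most similar profile are named, found by Pearson's r of log2 CPM over the 15 TG. All points share their library and its depth and composition, so r is given as a description. For Mrgprd they were Nsf (0.93), Dync1li1 (0.90) and Tubb4a (0.88). Oprm1 was most like Gm4887 (0.90), 4930452B06Rik (0.89) and Ddx54 (0.89). Oprl1 resembled Wdfy1 (0.85), Fgf13 (0.84) and Arv1 (0.84), and Cnr1 resembled Zfp451 (0.90), Asb1 (0.90) and Edil3 (0.89). For Ptger4 the genes were Thtpa (0.92) and Mms19 (0.92), and for Ptgir Map2k1 (0.84), Rdh13 (0.81) and Aars2 (0.81). The low receptors had as nearest genes Zcchc12 (0.89) and Col26a1 (0.80) for Oprk1, Gm13403 (0.86), Cables2 (0.82) and Chrm3 (0.78) for Oprd1, Gtpbp3 (0.86), Tgm4 (0.83) and Extl1 (0.82) for F2rl1 and Ece2 (0.86), Mlf1 (0.81) and Xkr4 (0.81) for Bdkrb2. Among the 45 pairs of receptors r ran from -0.39 between Oprd1 and Ptgir to 0.69 between Oprm1 and Ptger4, both of which were lowest in RvD6si replicate 12.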

How the data were processed

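The right TG of 15 mice were profiled by an adapted Smart-seq2 protocol, which primes on poly(A) and does not keep the strand. Reads were aligned by the authors with Rsubread to GRCm38 and counted on exons of GENCODE M22 with featureCounts (Subread 1.6.5 in the submitters' processing notes, with an older release in the header of the table), and the deposited values are raw counts per gene. Multi-mapping reads and reads on exons of several genes were left out, which lowers paralogs and overlapping genes. Names and positions were taken from GENCODE M21 (99.7% of identifiers named). Totals were 4125962 to 9903396 per sample. Squared differences between pairs of TG from one group were 11.3 to 49.2 times what counting noise gives (chi-square per degree of freedom). None was therefore a copy of another, and the spread between TG set the precision. Limits for counts of 0 (3 reads) cover counting error only.

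All 15 samples, in 3 groups from the labels, were fitted with edgeR 4.0.16 in R 4.3.3 (quasi-likelihood F test, TMM, minimum count of 10 and minimum total of 15 in the filter). An adjusted p (Benjamini-Hochberg over 16567 genes) below 0.05 was called. Normalized counts are counts divided by DESeq2 1.42.0 size factors, and their group means were compared by exact permutation, two-sided. The labels give no batch or pairing, and nothing states that the TG of a group were prepared apart, so p-values measure the spread between these samples, which may in part be technical. Alternatives were DESeq2 and edgeR on all or only the compared groups, RLE normalization, no filter or 10 counts in every sample, removal of a length trend (lowess, span 0.3), the pan-neuronal score as covariate, each sample left out, levels without length or in vehicle alone, log2(normalized count + 1) for the permutation and, added after the data were seen, RvD6 replicates 9 and 10 left out together. The steps were tested on simulated data. The receptors and gene lists were chosen with earlier results of these data known. Named were all 10 receptors, the genes called in each list and comparison and the 2 with the smallest p, and the 3 genes most like each receptor, of which 1 each for Ptger4 and Oprk1 is not reported here. Penk, Pdyn, Pnoc, Bdkrb1 and the markers were named outside this rule.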

Additional observations from a re-analysis of the deposited data

How the results depend on the processing

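No paired analysis was possible because the groups share no replicate number. No receptor was called in any comparison under any alternative run. Of 701 values of single receptors, 679 kept direction and side of the threshold and 22 turned direction, none of them past the threshold. With the pan-neuronal score as covariate the log2 fold change for RvD6 against vehicle became 0.35 for Oprl1, 0.24 for Ptger4 and -2.03 for Pomc, and for RvD6si against RvD6 it became -0.16 for Oprm1, -0.15 for Oprl1, -0.32 for Bdkrb2 and 1.32 for Pomc. Without turning, F2rl1 moved furthest with that covariate, from 0.73 to 3.80 for RvD6 against vehicle and from -0.16 to -3.54 between the lipids. F2rl1 had 0 reads in RvD6 replicates 9 and 10, which had the lowest scores. Cnr1 moved from 0.51 to 0.12 and from 0.22 to 0.57 in the same comparisons. Without RvD6 replicates 9 and 10, Oprl1 became 0.017 for RvD6 against vehicle. On the log2(normalized count + 1) scale the difference between the lipids turned for Oprm1 (exact permutation p = 0.905) and F2rl1 (exact permutation p = 0.881). With 1 sample left out, the log2 fold change for RvD6si against vehicle ranged from -0.51 to 0.0011 for Oprm1, from -1.43 to 0.065 for Oprd1, from -0.071 to 0.31 for Oprl1 and from -0.00058 to 1.502 for F2rl1. For RvD6 against vehicle it ranged from -0.21 to 0.13 for Ptgir and from -0.084 to 1.65 for F2rl1, and between the lipids from -0.11 to 0.41 for Oprm1, from -0.73 to 0.66 for F2rl1 and from -0.026 to 0.33 for Bdkrb2. The order of levels kept 8 of 10 ranks without division by length and 6 in vehicle alone.

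Counts over all genes moved far more. For RvD6si against vehicle, 111 genes became 979 with DESeq2 on these groups, 920 with DESeq2 on all samples, 315 with 10 counts in every sample, 63 with the length trend removed and 248 with the score as covariate, and the 3 pathway genes became 10 with either DESeq2 fit and 5 with the count minimum or the score. For RvD6 against vehicle, 0 genes became 664 and 369 with DESeq2, 24 with the count minimum, 38 with edgeR on these groups and 56 without a filter, and DESeq2 called 4 and 2 pathway genes. Between the lipids, 39 genes became 182 and 185 with DESeq2, 23 with the count minimum, 17 with edgeR on these groups, 59 without a filter, 3 with the score and 10 without RvD6 replicates 9 and 10, and DESeq2 on all samples called 2 pathway genes. With 1 sample left out these counts ranged from 0 (without RvD6si replicate 11) to 229 (without RvD6 replicate 9), from 0 to 51 (without RvD6si replicate 15) and from 2 to 156 (without RvD6si replicate 15), and the pathway genes for RvD6si against vehicle from 0 to 5. Leaving out a vehicle sample put the first of these counts between 6 and 13. The cause was not tested. Oprd1, F2rl1, Oprk1 and Bdkrb2 had at most 83 reads in a sample, and their SD between TG of a group was still 2.51 to 3.68 times that of counting.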
